A study of Mus musculus with 17 samples.

Results

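The response of MCA205 tumours to doxorubicin (DX) was compared between day 7 and day 2 after injection. MCA205 is a transplantable mouse fibrosarcoma line, and palpable tumours on C57bl/6 mice of genotype WT had received DX, spelled Doxorubucin in the labels, or phosphate-buffered saline (PBS). Whole-tumour RNA was measured on Illumina mouse BeadChips, arrays on which each probe is carried by many beads. The quantity examined was the difference of differences for each probe: DX minus PBS on day 7, less DX minus PBS on day 2. The day 7 DX level was the mean of the responder (R) and non-responder (NR) group means, so that both courses counted equally. A positive value means that DX tumours stood higher against the PBS tumours of the same day on day 7 than on day 2, and a negative value means the reverse.

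The comparison used 14 of the 17 arrays. These were 3 PBS and 2 DX tumours taken on day 2, and 3 PBS, 3 NR and 3 R tumours taken on day 7. Response was assigned by tumour shrinkage. The 3 day 10 DX R arrays entered no mean of the comparison. They did enter the normalization, the detection filter, the choice of the probe that stands for a gene and the shared estimate of spread. Every probe with a detection p under 0.01 on at least 2 arrays was tested, which kept 17674 of 45281 probes. Age and sex of the mice are not given in the labels, and neither is whether replicates were separate animals, so the p-values measure the spread between these samples. Because each sample is a whole tumour, fewer cells of a type and less RNA per cell cannot be told apart.

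The arrays detected 13728 to 15568 probes each, and arrays of the same group correlated with r of 0.963 to 0.989. Of 23 markers of fibroblasts and stromal matrix, the tissue of a fibrosarcoma, 22 were measured. Day 7 PBS replicates 2 and 3 detected 14004 and 13728 probes, the fewest among the PBS arrays. Day 7 DX R replicate 3 carried skeletal muscle transcripts at a mean log2 signal of 10.90 over 16 markers, against at most 7.02 on the other arrays of days 2 and 7. The arrays lay on 3 BeadChips, and each BeadChip had the same share in the day 7 as in the day 2 difference. A fixed BeadChip term therefore left every difference between the days as it was. This balance does not hold for the DX effect of a single day. BeadChip 1 held 1 day 2 DX, 1 NR and 2 R arrays of day 7 and no PBS array, and had a share of 0.5 in each day's effect. DX and BeadChip are thus partly mixed in the day 2 and day 7 effects.

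As background, DX is an anthracycline that traps topoisomerase II on DNA and so breaks the double strand. Type I interferons are secreted when cells sense nucleic acid out of place. They bind a receptor present on most cells, and a complex of transcription factors then binds interferon-stimulated response elements (ISREs) before genes with antiviral and regulatory functions. Anthracyclines are known to switch on this pathway in tumour cells. Globin transcripts, in contrast, are made by red cell precursors and are carried into tissue by young red cells in the blood.

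The DX effect differed between the days for 37 of 17674 probes at a Benjamini-Hochberg adjusted p under 0.05 in limma, which is 0.209% of the probes tested. It was higher on day 7 for 16 probes (0.0905%) and lower for 21 (0.119%). At an unadjusted p under 0.05 the count was 1417. In the same fit, 101 probes (0.571%) differed between DX and PBS on day 2 (84 higher, 0.475%, and 17 lower, 0.0962%). On day 7, 55 probes (0.311%) differed (41 higher, 0.232%, and 14 lower, 0.0792%). At an unadjusted p under 0.05 in limma the order was the reverse, with 1072 probes on day 2 and 2520 on day 7. The day 2 effect set 2 DX arrays against 3 PBS arrays and the day 7 effect 6 against 3. The counts of the days therefore do not measure which effect was larger. Over all probes the median difference was 0.01 on the log2 scale, with 5th and 95th percentiles of -0.60 and 0.62. Across probes, which are not independent replicates and share their arrays, the day 2 effects showed almost no relation to the day 7 effects (Pearson r of 0.0457, Spearman rho of 0.0374).

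**Figure D1:**
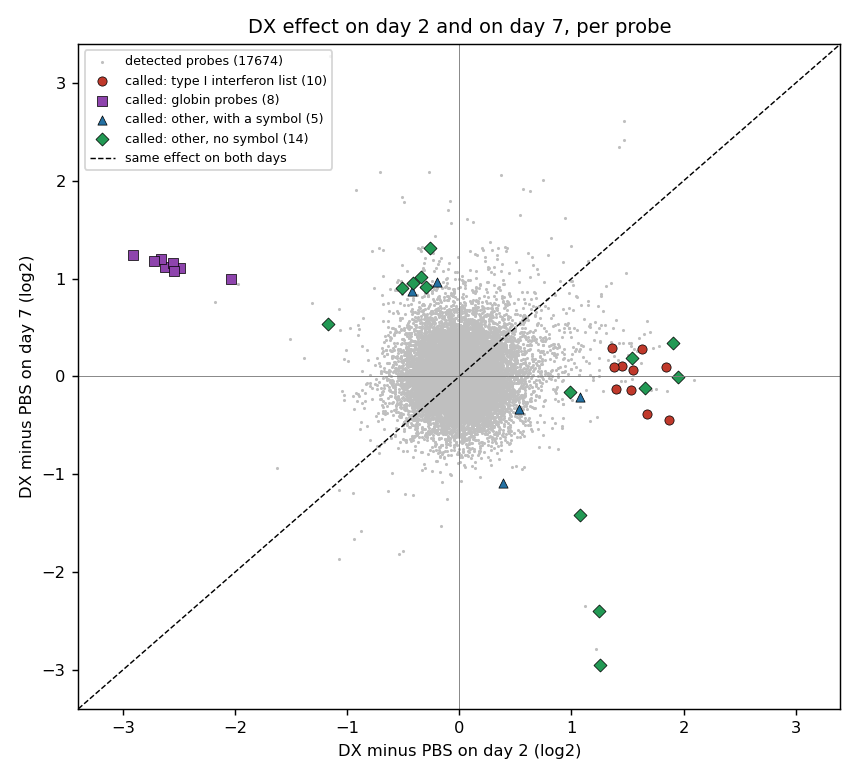
DX minus PBS on day 2 (horizontal, log2) against DX minus PBS on day 7 (vertical, log2) for 17674 detected probes; coloured symbols mark the 37 probes whose effects differed between the days, and the dashed line marks equal effects. The called interferon probes lie far to the right near the horizontal zero line, the 8 called globin probes lie at upper left, and 3 called probes without a symbol lie at lower right.

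The calls depended on the small groups. Without day 2 DX replicate 1 the count of 37 fell to 1, and without day 2 DX replicate 2 it was 15. It was 22, 26 and 24 without day 2 PBS replicates 1, 2 and 3, and 21, 24 and 23 without day 7 PBS replicates 1, 2 and 3. Without the 2 day 7 PBS arrays that detected the fewest probes no probe was called in limma, with 1160 at an unadjusted p under 0.05 and a smallest adjusted p of 0.0693. Of the 16 called genes, 0 were called without day 2 DX replicate 1, in a limma fit with 1154 probes at an unadjusted p under 0.05, and 8 without day 2 DX replicate 2. All 37 probes kept their sign in each of these fits. The probes had been chosen for large differences on mostly the same arrays, so a kept sign adds little. The 37 probes also kept their sign when each side of the comparison was taken only between arrays of the same BeadChip (37 of 37). BeadChip 1 held no PBS array, so its DX arrays had no part in that check. The day 2 side then rested on day 2 DX replicate 2 alone, and the day 7 side lacked NR replicate 2 and R replicates 2 and 3.

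The called probes fell into 3 kinds when the effects on the days, taken without a BeadChip term, were set side by side. For 25 probes the day 2 effect was more than 2 times as large as the day 7 effect, and these included the interferon and the globin probes. For 8 probes the day 7 effect was more than 2 times the day 2 effect. The remaining 4 had effects of opposite sign and like size. By gene, 23 of the 37 probes had a symbol, for 16 genes, and 14 probes had none.

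Interferon-stimulated genes made up most of the named genes whose DX effect was lower on day 7. Of 26 measured genes of the type I interferon response, 8 were called lower in the difference and 0 higher (background 0.119% and 0.0905% of all probes), and all 26 had a difference below 0. The list was chosen with earlier results of these data known. Its counts and medians therefore describe these data and are no independent support. The list's median difference was -1.17, against 0.01 over all probes. On day 2 its median DX effect was 1.37 and 16 of the 26 were called higher, where 0.475% of all probes were. On day 7 the median effect was 0.12, and limma called 0 of 26, with 5 at an unadjusted p under 0.05. Over all 17674 probes limma had 2520 at that unadjusted p on day 7. Both day 2 DX arrays lay above all 3 day 2 PBS arrays for 26 of 26 genes, as they did for 12.1% of all probes. On day 7 the 6 DX arrays lay above the 3 PBS arrays for 1 of the 26, against 3.49% of all probes. That gene was Oas2, a sensor enzyme for double-stranded RNA, with a DX effect of 1.48 on day 2 and 1.05 on day 7 and a difference of -0.43 ± 0.37 (SE, adjusted p = 0.812).

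**Figure D2:**
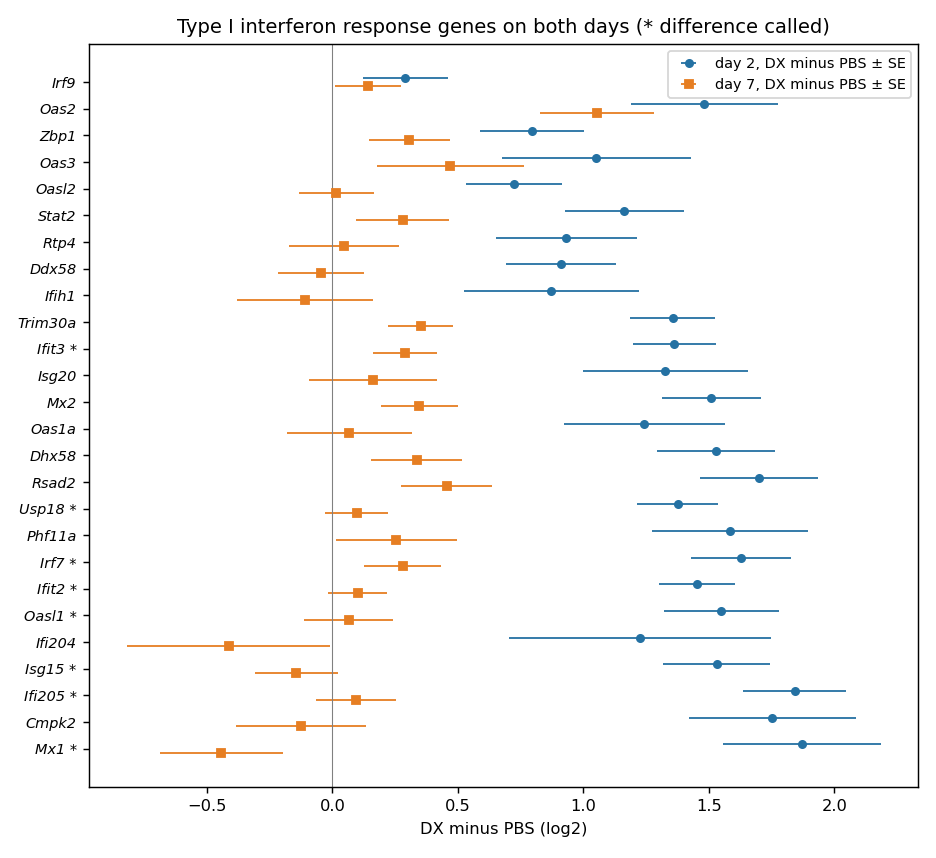
DX minus PBS (log2, horizontal) with its standard error for 26 genes of the type I interferon response, on day 2 (circles) and day 7 (squares); an asterisk marks the 8 genes whose difference was called. Day 2 values run from 0.29 to 1.87 and day 7 values from -0.44 to 1.05, and the day 7 value is the lower of the pair for every gene.

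Mx1, an interferon-induced gene of the dynamin-like GTPase family, had the lowest difference of the list, at the stated normalization. Its log2 signal was 5.42, 5.66 and 5.77 in day 2 PBS tumours and 7.70 and 7.27 in day 2 DX tumours. On day 7 it was 5.82, 6.08 and 6.16 with PBS, 5.66, 5.34 and 5.86 in NR and 5.91, 5.21 and 5.47 in R tumours. The 2 day 2 DX arrays stood apart from all others, and the day 7 groups overlapped. The DX effect was 1.87 on day 2, a 3.66-fold rise, and -0.44 on day 7, giving a difference of -2.31 ± 0.40 (SE, adjusted p = 0.0147). The probe was near background where it was low, and 2 of 3 R arrays detected it. The difference was -1.06 with quantile normalization without background correction and -1.08 with the authors' table, where that of Ifi205 was lower (-1.36 and -1.37).

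Isg15, a ubiquitin-like protein that is joined to other proteins during the response, was brighter. It measured 9.44, 9.43 and 9.19 in day 2 PBS and 11.11 and 10.66 in day 2 DX tumours. By day 7 its values were 9.37, 9.52 and 9.94 with PBS, 9.50, 9.19 and 9.39 in NR and 9.92, 9.36 and 9.42 in R tumours. All day 7 arrays thus lay below both day 2 DX arrays, with DX and PBS mixed. The day 2 effect of 1.53 was a 2.89-fold rise, the day 7 effect was -0.14, and the difference was -1.68 ± 0.27 (SE, adjusted p = 0.0109).

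Irf7, the transcription factor that amplifies interferon production, read 8.53, 8.61 and 8.65 in day 2 PBS and 10.53 and 9.93 in day 2 DX tumours. The day 7 values were 8.73, 8.79 and 9.31 with PBS, 9.13, 8.97 and 9.13 in NR and 9.17, 9.38 and 9.55 in R tumours. Its day 7 DX arrays overlapped PBS replicate 3, the highest of the day 7 PBS arrays. The effect was 1.63 on day 2 and 0.28 on day 7, with a difference of -1.35 ± 0.25 (SE, adjusted p = 0.0266).

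Ifi205, a member of the interferon-inducible p200 family, rose from 7.44, 7.71 and 7.61 with PBS to 9.48 and 9.37 with DX on day 2. The day 7 readings were 7.70, 7.65 and 8.25 with PBS, 7.85, 8.04 and 7.42 in NR and 8.20, 8.35 and 7.92 in R tumours. The difference was -1.75 ± 0.26 (SE, adjusted p = 0.00806), and both further probes of the gene had the same sign. The other called genes of the list were Ifit2 (-1.35) and Ifit3 (-1.07), which bind foreign RNA, Oasl1 (-1.48), an OAS-like protein, and Usp18 (-1.28), the protease that removes ISG15 and damps receptor signalling. Second probes of Ifit2 and Usp18 were called as well, so that 10 interferon probes were called in all, with differences from -2.31 to -1.07. Further probes of Oasl1 (-1.11 and -0.83) and Ifit3 (-2.13) had the same sign and were not called. Oasl1 was called in 17 and Ifit3 in 16 of 31 alternative fits. Uncalled members included Cmpk2, a mitochondrial nucleotide kinase (-1.88, adjusted p = 0.0955), and Irf9, an interferon regulatory factor (-0.15, adjusted p = 0.904). With BeadChip as a fixed block 10 of the 26 were called lower, Cmpk2 and Mx2 among them.

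Per array, the mean log2 signal over the 26 genes was 8.09, 8.13 and 8.01 in day 2 PBS tumours and 9.63 and 9.15 in day 2 DX tumours. On day 7 it was 8.13, 7.93 and 8.56 with PBS, 8.39, 8.28 and 8.13 in NR and 8.64, 8.38 and 8.31 in R tumours. Day 2 DX replicate 1 was the highest array and day 7 PBS replicate 3 the highest of the PBS arrays. Over time the list's median fell by 0.95 in DX tumours and changed by 0.18 in PBS tumours. Taken only within BeadChips, and so with day 2 DX replicate 2 alone on the day 2 DX side, the list's median difference was -0.88.

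Promoters are shown for some genes of this list that held a DNA element through which the response is known to run. The window searched ran from 250 bases before to 50 bases after the RefSeq transcription start on GRCm38.p6. The ISRE core was searched as GAAA, any 2 bases and GAAA on both strands, overlapping matches included. It was present in 1131 of 32851 promoters (3.44%) and, by gene, in 318 of 8132 genes with a detected probe (3.91%). Of the 18 list genes with a listed promoter, 11 held it (61.1%). Of the 7 called interferon genes with a listed promoter, Trex1 included, 3 held it (42.9%). Among called genes it was found for Ifi205, Ifit3 and Isg15 and not in the windows of Ifit2, Irf7, Oasl1 and Trex1, while Mx1 and Usp18 were not matched. The stretches below start 20 bases before the first match, end at most at the transcription start and run 5′ to 3′ on the gene's strand. Capitals mark the match, which reads TTTC, 2 bases and TTTC where it lies on the other strand.
Isg15, chr4:156200819-156200916, minus strand: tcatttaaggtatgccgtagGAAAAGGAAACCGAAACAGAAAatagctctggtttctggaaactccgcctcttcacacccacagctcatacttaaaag
Ifit3, chr19:34583353-34583472, plus strand: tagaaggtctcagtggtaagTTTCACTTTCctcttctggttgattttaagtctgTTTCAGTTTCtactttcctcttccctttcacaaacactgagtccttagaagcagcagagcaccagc
Ifi205, chr1:174031790-174031909, minus strand: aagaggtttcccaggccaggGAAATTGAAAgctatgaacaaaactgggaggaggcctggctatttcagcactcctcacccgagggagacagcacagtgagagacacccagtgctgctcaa
Rsad2, chr12:26456473-26456592, minus strand: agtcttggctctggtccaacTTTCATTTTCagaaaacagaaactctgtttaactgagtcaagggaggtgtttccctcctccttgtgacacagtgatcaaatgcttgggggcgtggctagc
In Isg15 3 overlapping matches form a run of repeats that starts 78 bases before the transcription start. In Ifit3 2 separate matches start 156 and 122 bases before it. The Ifi205 window held 2 matches, and the stretch shown holds only the first, 134 bases before the start. Rsad2, an antiviral radical enzyme also known as viperin, is shown as an uncalled member with a match (difference -1.24, adjusted p = 0.134). A match describes these letters only.

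Among 10 measured genes of nucleic acid sensing and interferon beta, limma called Trex1 lower and 0 higher, and 3 had an unadjusted p under 0.05. Trex1 is the exonuclease that degrades DNA in the cytosol. It measured 7.57, 7.21 and 7.81 in day 2 PBS and 8.89 and 8.32 in day 2 DX tumours. Later, on day 7, it was 7.83, 7.77 and 7.96 with PBS, 7.45, 7.53 and 7.63 in NR and 7.92, 7.54 and 7.79 in R tumours. Its DX effect was 1.08 on day 2 and -0.21 on day 7, a difference of -1.29 ± 0.26 (SE, adjusted p = 0.0447). With BeadChip as a fixed block the adjusted p was 0.0534. Trex1 was called in 12 of 31 alternative fits, and its further probe (-0.72) was not called.

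Ifnb1, which encodes interferon beta itself, was close to background. It was detected on 0 of 3 day 2 PBS arrays, on 2 of 2 day 2 DX arrays, on 1 of 3 day 7 PBS arrays and on none of the 6 day 7 DX arrays. On day 2 it was at least 2.28-fold higher with DX, a bound for which each PBS array was given whichever was greater, its own reading of the probe or its lowest reading among detected probes. Its difference was -2.0 ± 0.46 (SE) and did not pass the test (adjusted p = 0.101). The list's median was -0.02, and the sensors Cgas and Sting1 had differences of 0.12 and 0.13.

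The interferon gamma response, presentation on MHC class I and the ligands of CCR2 had negative medians, and none of their members was called in the fit without a BeadChip term. Of 13 measured genes of the interferon gamma response limma called 0, with 2 at an unadjusted p under 0.05, and the median difference was -0.32. Without day 2 DX replicate 1 that median was -0.014. This list kept a positive median DX effect on both days, 0.83 on day 2 and 0.47 on day 7. Cxcl10, a chemokine for activated T cells, had the lowest value (-1.22, adjusted p = 0.114). For MHC class I limma called 0 of 15, with 4 at an unadjusted p under 0.05, and 12 were below 0, with a median of -0.31. H2-Q7, a nonclassical class I gene, was at -0.74 and the peptide transporter subunit Tap2 at -0.61.

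The CCR2 axis, named in the title of the series, comprises the receptor Ccr2 of inflammatory monocytes and its ligands Ccl2, Ccl7 and Ccl12. Limma called 0 of the 4 in the difference, with 3 at an unadjusted p under 0.05. Ccl2 measured 9.94, 9.93 and 10.06 in day 2 PBS and 11.13 and 10.71 in day 2 DX tumours. The day 7 tumours read 9.34, 9.10 and 9.28 with PBS, 9.60, 9.40 and 8.64 in NR and 9.99, 9.46 and 8.99 in R tumours. Its DX arrays stood apart on day 2 and overlapped PBS on day 7. The difference was -0.83 ± 0.39 (SE, adjusted p = 0.598). Ccl7 had a difference of -0.78 (adjusted p = 0.504) and Ccl12 of -1.33 (adjusted p = 0.104). With BeadChip as a fixed block Ccl12 was called (adjusted p = 0.0213). Both ligands, like Ccl2, had day 2 DX arrays above the day 2 PBS arrays, as 12.1% of all probes did. Ccr2 was detected on no day 7 array, so no day 7 fold is given for it.

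Globin transcripts made up the largest positive differences among called genes. Hbb-bs, an adult beta globin, measured 8.96, 9.12 and 10.06 in day 2 PBS and 6.77 and 6.16 in day 2 DX tumours. By day 7 its signal was 8.87, 9.23 and 9.33 with PBS, 9.25, 9.95 and 11.45 in NR and 10.63, 10.85 and 10.16 in R tumours. Both day 2 DX arrays lay below every other array (as a probe's 2 DX arrays lay below the 3 PBS arrays of day 2 for 14.7% of all probes), and on day 7 the lowest NR array overlapped PBS. The DX effect on day 2 was -2.92, a 7.55-fold lower signal, and on day 7 it was 1.24 (adjusted p = 0.140). The difference was 4.16 ± 0.61 (SE, adjusted p = 0.00806).

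Hba-a1, an alpha globin on another chromosome, followed the same order. It measured 8.36, 8.52 and 9.52 in day 2 PBS, 6.79 and 5.72 in day 2 DX, 8.45, 8.75 and 9.00 in day 7 PBS, 8.74, 9.34 and 10.87 in NR and 10.09, 10.26 and 9.55 in R tumours. Its difference was 3.62 ± 0.64 (SE, adjusted p = 0.0177). Hbb-bt, the neighbouring adult beta globin, had a difference of 3.90 ± 0.65 (SE, adjusted p = 0.0117). Of 11 detected globin probes 8 were called higher (background 0.0905% of all probes), with differences from 3.04 to 4.16, and the other 3 were positive. The globin genes are near copies of each other, so how far their probes read each gene alone is uncertain. The measured members of the erythroid list were 3 globins.

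**Figure D3:**
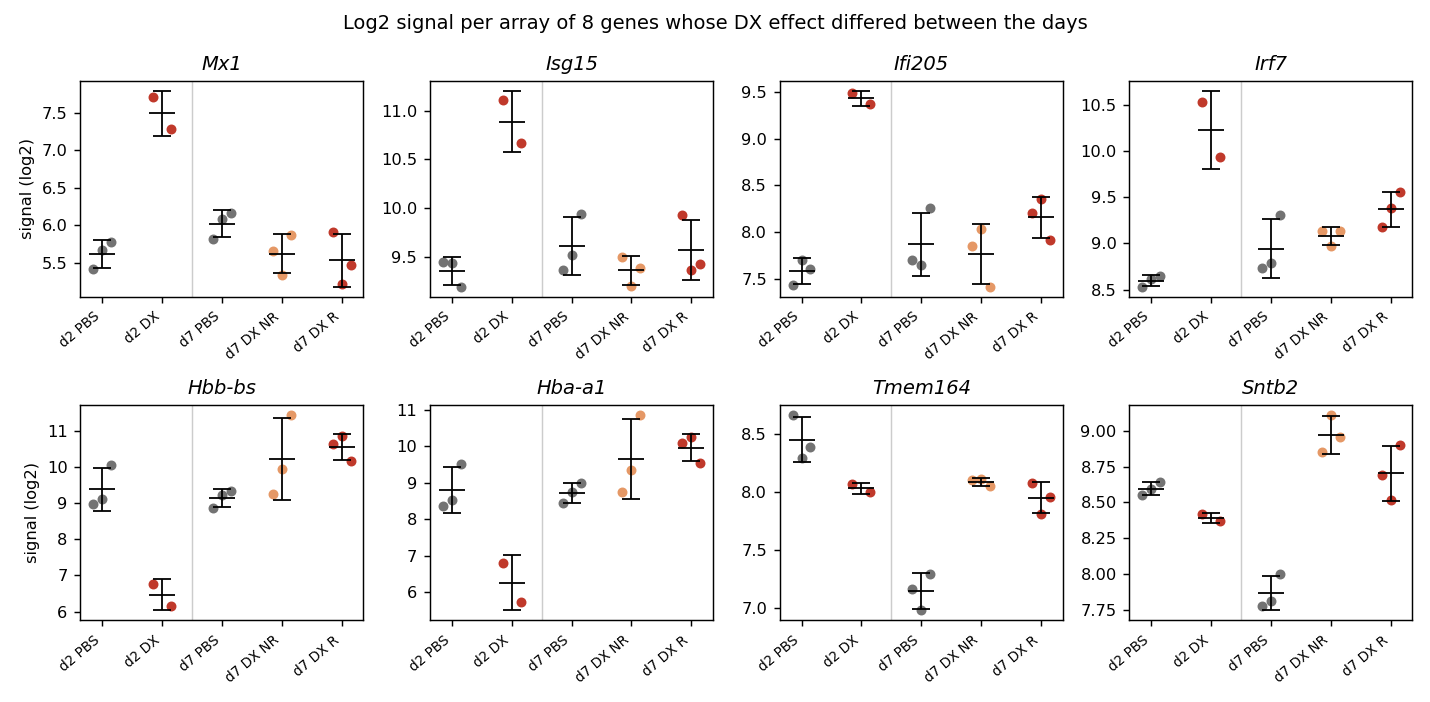
Log2 signal per array of 8 genes with a called difference, by group (d2 and d7 are day 2 and day 7), each array a point, with horizontal bars for the group mean and the mean ± SD (n = 3, and n = 2 for day 2 DX). In the upper row and in Hbb-bs and Hba-a1 the day 2 DX arrays stand apart, while in Tmem164 and Sntb2 the day 7 PBS arrays stand apart at 6.98 to 7.29 and 7.78 to 8.00.

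For the globins the change over time lay in the DX tumours. From day 2 to day 7 Hbb-bs changed by 3.92 in DX tumours and by -0.24 in PBS tumours. Without day 2 DX replicate 1 or 2 the adjusted p of Hbb-bs was 0.0795 or 0.0511, and its difference stayed between 3.82 and 4.46 in the fits that left out 1 array each. Within BeadChips, with day 2 DX replicate 2 alone on the day 2 DX side, it was 4.85. With the authors' processed table or quantile normalization without background correction, Hbb-bt and Hba-a1 were no longer called.

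The Hbb-bs promoter is shown for the CACCC element, which erythroid Kruppel-like factor is known to bind in adult beta globin genes. The element was searched as CCACACCC on both strands and was found in 1170 of 32851 promoters (3.56%). It started 93 bases before the Hbb-bs start and is marked in capitals, and the windows of Hbb-bt and Hba-a1 held no match.
Hbb-bs, chr7:103827929-103828041, minus strand: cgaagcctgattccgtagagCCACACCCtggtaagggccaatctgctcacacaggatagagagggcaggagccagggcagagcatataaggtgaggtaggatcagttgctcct

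Other genes that serve iron and red cells were measured beside the globins. Tfrc, the transferrin receptor through which cells take up iron, had a difference of 0.73 (adjusted p = 0.310). It read 10.78, 11.09 and 11.20 in day 2 PBS tumours and 9.94 and 10.30 in day 2 DX tumours, a day 2 effect of -0.91 (adjusted p = 0.0165). Its day 7 effect was -0.18. Over 13 measured genes of iron handling limma called 0 in the difference, with 2 at an unadjusted p under 0.05, and the median was 0.50.

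A smaller set of probes differed through day 7. Tmem164, a multi-pass membrane protein, measured 8.67, 8.29 and 8.39 in day 2 PBS and 8.07 and 8.00 in day 2 DX tumours. Day 7 tumours read 7.16, 6.98 and 7.29 with PBS, 8.10, 8.11 and 8.05 in NR and 8.08, 7.81 and 7.96 in R tumours. DX tumours were alike on both days, whereas all 3 day 7 PBS arrays were lower than every other array. The DX effect was -0.42 on day 2 and 0.88 on day 7, a difference of 1.29 ± 0.21 (SE, adjusted p = 0.00943). The further probe of the gene had the same sign (0.59, adjusted p = 0.671).

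Sntb2, the beta 2 syntrophin of the dystrophin-linked membrane complex, likewise had its lowest arrays in day 7 PBS tumours. It measured 8.55, 8.60 and 8.64 in day 2 PBS, 8.42 and 8.37 in day 2 DX, 7.78, 7.82 and 8.00 in day 7 PBS, 8.85, 9.11 and 8.95 in NR and 8.69, 8.52 and 8.90 in R tumours. Its difference was 1.17 ± 0.22 (SE, adjusted p = 0.0264). The gene's other 2 probes had the opposite sign (-0.36 and -0.40), so the probes of Sntb2 disagree.

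Lamp2 and Mtmr14 were also called, through probes that were not the brightest of their gene, and are named here after their values were seen. Lamp2, a lysosomal membrane glycoprotein, measured 9.79, 9.68 and 9.80 in day 2 PBS and 10.28 and 10.30 in day 2 DX tumours. Day 7 tumours read 10.40, 10.33 and 10.62 with PBS, 10.16, 10.17 and 10.04 in NR and 10.04, 10.11 and 10.16 in R tumours. DX arrays thus lay above PBS on day 2 and below PBS on day 7, and the difference was -0.87 ± 0.16 (SE, adjusted p = 0.0209). Mtmr14, a phosphoinositide phosphatase, had a difference of -1.48 ± 0.29 (SE, adjusted p = 0.0345) on a probe near background. That of Mtmr14 was -0.45 with quantile normalization without background correction, and it was called in 9 of 30 alternative fits. For both genes other probes were not called.

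Of the 14 called probes without a symbol, 6 differed mainly through day 2 and the other 8 through day 7 or both days. ILMN_2450735 had the lowest difference of all probes (-4.20 ± 0.76, SE, adjusted p = 0.0209). It read 7.36, 5.07 and 7.52 in day 2 PBS and 8.02 and 7.78 in day 2 DX tumours. On day 7 it read 8.89, 9.32 and 9.63 with PBS, 5.99, 6.12 and 6.20 in NR and 6.21, 6.97 and 6.50 in R tumours. The 3 day 7 PBS arrays were the highest of days 2 and 7, and ILMN_1247996 (-3.64) and ILMN_1224842 (-2.50) shared that order. ILMN_2433990 had the smallest adjusted p of all probes (0.00122), with a difference of -1.77 ± 0.21 (SE).

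For these late differences the change over time lay more in PBS tumours. In all 12 called probes whose day 2 effect was not the main part, the change from day 2 to day 7 was larger in PBS than in DX tumours. In the 25 others the change was larger in DX tumours for 22. The day 7 PBS arrays enter both the day 7 effect used for the sorting and the PBS change. Likewise the day 2 DX arrays enter both the day 2 effect and the DX change. These counts therefore describe the called probes and are no independent support. Tmem164 fell by 1.31 in PBS tumours and by 0.01 in DX tumours, and Sntb2 changed by -0.73 and 0.44. In the same fit 99 probes (0.560%) differed between the days in PBS tumours and 229 (1.30%) in DX tumours. The detected probes of day 7 PBS replicates 2 and 3 were the fewest among PBS arrays. In day 7 PBS replicate 1 Tmem164 was 7.16 and Sntb2 was 7.78. That array detected 14359 probes, against 15055 to 15367 on the day 2 PBS arrays. NR replicates 1 and 3 and R replicate 2 of day 7 detected 14048, 14319 and 14070. The part of signal range in these differences was not tested.

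**Figure D4:**
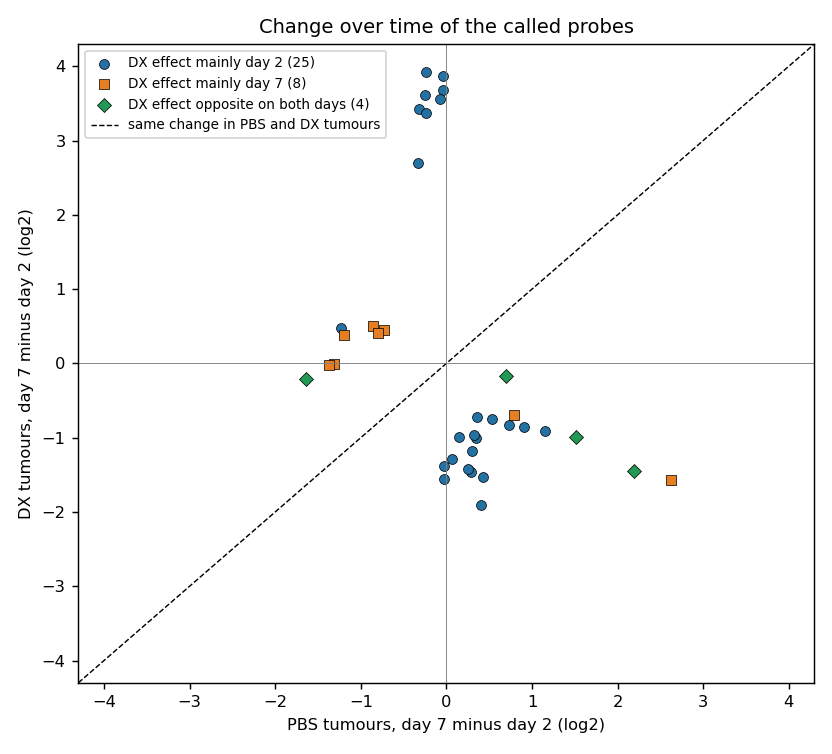
Change from day 2 to day 7 in PBS tumours (horizontal, log2) and in DX tumours (vertical, log2) for the 37 called probes, marked by whether the DX effect was mainly that of day 2, mainly that of day 7 or opposite on the days; the dashed line marks equal change. Globin probes lie at the top near 0 on the horizontal axis, and late probes lie at left and right, away from 0 on the PBS axis.

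The day 7 side of the comparison was also taken from R and NR tumours separately. Taking R or NR tumours alone as the day 7 DX group, 25 and 43 probes were called, and 23 and 35 of the 37 were among them. For Hbb-bs the day 7 effect was 1.40 in R and 1.07 in NR tumours, for Isg15 -0.04 and -0.25, and for Tmem164 0.81 and 0.94. Of the 37 called probes, limma called 0 between R and NR tumours (0.00% of all probes), with 2 at an unadjusted p under 0.05. Over all 17674 probes limma had 999 at that unadjusted p between R and NR tumours.

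Genes that filled the naming rule below the threshold are given by value. Among positive differences these were Prl2c2, a prolactin family growth factor also called proliferin (1.65, adjusted p = 0.0712), Ahnak, a large scaffold protein under the membrane (0.71, adjusted p = 0.0712, and 0.0429 with BeadChip as a fixed block), Ddah1, which degrades methylarginines (1.11, adjusted p = 0.114), Serping1, the inhibitor of complement C1 (1.28, adjusted p = 0.136), and Plxna2, a semaphorin receptor (1.52, adjusted p = 0.136). The other 3 probes of Ahnak were at -0.08, 0.34 and -0.12. Prl2c2 read 6.68, 6.41 and 6.77 in day 7 PBS tumours and 7.32 to 8.44 in day 7 DX tumours. Among negative differences the gene was Trim30a, an interferon-induced ubiquitin ligase family member (-1.0, adjusted p = 0.0712).

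Markers of T and NK cells had mostly positive differences that did not pass the test. Over 10 measured markers limma called 0, with 3 at an unadjusted p under 0.05, 9 were above 0 and the median was 0.71. Without day 2 DX replicate 2 it was 0.35. The median day 7 effect was 0.85 in R and 0.21 in NR tumours, and -0.03 on day 2. Klre1, a receptor of NK cells, read 5.97, 5.90 and 6.10 in day 2 PBS, 6.04 and 5.47 in day 2 DX, 5.54, 5.00 and 6.61 in day 7 PBS, 6.80, 6.95 and 5.95 in NR and 7.35, 7.51 and 7.31 in R tumours. Its difference was 1.5 ± 0.48 (SE, adjusted p = 0.354). Thy1 was at 1.06 and the T cell receptor subunit Cd3e at 0.96. R tumours were the highest arrays for all 3 genes, and NR tumours overlapped PBS.

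Of 18 monocyte and macrophage markers 13 were below 0, with a median of -0.20, 0 called by limma and 3 at an unadjusted p under 0.05. The median was 0.03 without day 2 DX replicate 2. Fcgr1, the high-affinity IgG receptor, was at -1.0 (adjusted p = 0.276), and Mrc1, the macrophage mannose receptor, at 0.90 (adjusted p = 0.508). For presentation on MHC class II the median over 10 genes was 0.07.

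Transcripts of skeletal muscle and skin, tissues that can be cut out with a tumour, were high on single arrays. All 16 measured skeletal muscle markers had a positive difference, with a median of 0.85 and 0 at an unadjusted p under 0.05 in limma. Without R replicate 3 the median was 0.05. Krt14, a keratin of basal skin cells, had the largest difference of all probes, 4.43, with an SE of 2.27 (adjusted p = 0.650). It read 12.11 in NR replicate 2 and 12.92 in R replicate 3, against 5.13 and 5.01 in the other NR tumours. Without the 2 arrays richest in muscle transcripts, R replicate 3 and a day 10 array, 31 probes were called, of which 29 were among the 37. The differences of Hbb-bs and Isg15 were then 4.25 and -1.64.

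Genes of processes on which DX is known to act were not called in the difference. Limma called 0 of 22 p53 targets and damage response genes, with 1 at an unadjusted p under 0.05 and a median of -0.11. Cdkn1a, the p53-induced cell cycle inhibitor p21, read 8.69, 8.93 and 8.60 in day 2 PBS, 10.12 and 9.27 in day 2 DX, 8.95, 8.77 and 9.40 in day 7 PBS, 9.34, 9.60 and 9.23 in NR and 9.58, 9.70 and 9.90 in R tumours. Its DX effect was 0.96 on day 2 and 0.52 on day 7, and the difference of -0.43 ± 0.31 (SE) did not pass the test. Further probes of Cdkn1a had DX effects of 1.16 and 0.52 on day 2 but 0.01 and 0.15 on day 7. Their differences were -1.15 and -0.37 and did not pass the test either, so the probes disagree on the day 7 effect. Top2a, the topoisomerase of dividing cells, had a difference of -0.03 ± 0.31 (SE), whose sign turned in several alternative fits. Its other 2 probes were at 0.44 and 0.72, so the probes of Top2a disagree. Top2b was at -0.62 ± 0.48 (SE). The median over 26 cell cycle genes was -0.04.

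Among metabolic lists, hypoxia and glycolysis had 21 of 23 genes below 0 and a median of -0.34, with 0 called by limma and 4 at an unadjusted p under 0.05. The median changed by 0.38 from day 2 to day 7 in PBS tumours and by 0.04 in DX tumours. P4ha1, a collagen prolyl hydroxylase, read 7.55, 7.92 and 7.63 in day 2 PBS, 8.37 and 8.45 in day 2 DX, 8.72, 8.48 and 9.36 in day 7 PBS, 8.43, 8.41 and 8.56 in NR and 8.10, 8.44 and 8.80 in R tumours, with a difference of -1.11 (adjusted p = 0.173). The other probe of P4ha1 had the opposite sign (0.34). On the first probe DX arrays were above PBS on day 2 and overlapped PBS on day 7. Sterol and lipid synthesis had 14 of 17 genes below 0 with a median of -0.14. On day 7 the 6 DX arrays lay below the 3 PBS arrays for 6 of the 17, against 2.76% of all probes. Limma called 4 of those 17 lower with DX on day 7, where 0.0792% of all probes were, among them the cholesterol synthesis enzymes Nsdhl (-0.98) and Cyp51 (-0.76), whose differences between the days were -0.81 and -0.53 and did not pass the test. With BeadChip as a fixed block 0 of the 17 were called on day 7, in a limma fit with 1519 probes at an unadjusted p under 0.05, and none was called without the 2 day 7 PBS arrays of fewest detected probes (1296 at an unadjusted p under 0.05).

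**Figure D5:**
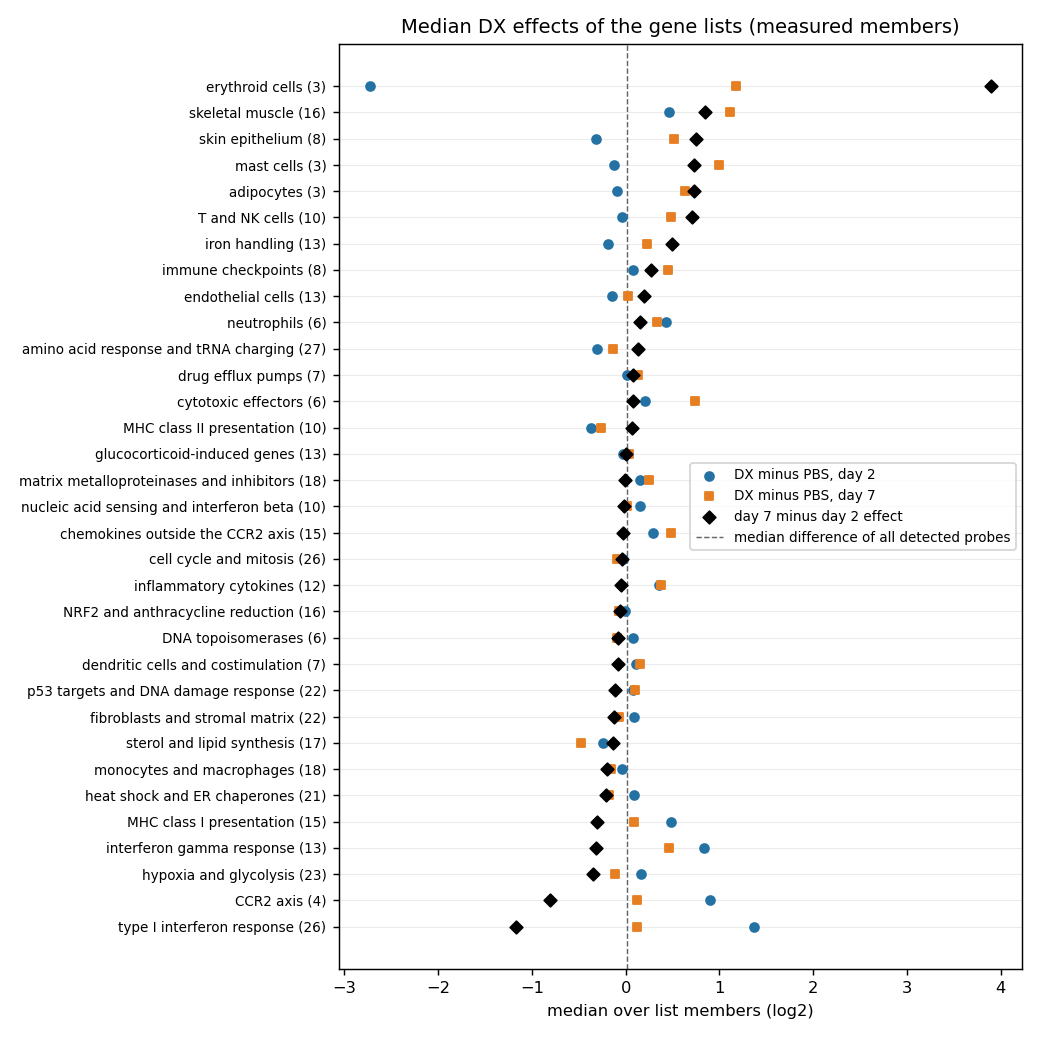
Median over the measured members (number in brackets) of each gene list for DX minus PBS on day 2 (circles), on day 7 (squares) and for the difference (diamonds), all on the log2 scale; the dashed line is the median difference of all detected probes, 0.01. The erythroid list of 3 globins stands at 3.90, the type I interferon list at -1.17, the CCR2 axis at -0.81 and skeletal muscle at 0.85.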

How the data were processed

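The authors deposited, per the file headers, a signal intensity and a detection p-value for each probe and array, before normalization. The deposited detection p-value was taken for the fraction of negative control beads whose signal reached that of the probe, although the sources used here do not say how it was made. The submitters' processing notes name GenomeStudio 2011.1. Another table deposited by the authors gives normalized intensity on a linear scale. Its column medians were 119.6 to 119.7 and its sorted values differed by at most 0.399 between arrays, and the steps behind it are not given in the sources used here. It served as an alternative.

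Signals were background-corrected, quantile-normalized and put on the log2 scale by neqc (limma 3.58.1, R 4.3.3) at an offset of 16, which shrinks the fold changes of dim probes. A gene is represented by its brightest detected probe unless stated otherwise, and the platform annotation gave 15258 of the detected probes, for 10035 genes, a symbol and 2416 none. Gene IDs were looked up in a RefSeq gene table of GRCm38.p6 (34807 probes matched, 0 symbols changed), which served for names, and RefSeq promoters of the same build gave the sequences.

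All 17 arrays entered 1 linear model in limma, which estimated 6 group means and let the variance follow the mean (11 residual and 7.65 prior degrees of freedom), and p-values were adjusted by Benjamini-Hochberg over 17674 probes. The differences of DX and PBS on each day came from the same fit and share arrays with the comparison. The titles of the samples gave the groups, and the array codes in the labels gave the BeadChips. Replicate numbers did not pair the samples: over 26 same-numbered pairs the mean correlation of deviations was -0.02 (range -0.22 to 0.20). The fit was tested on simulated data. The precision is limited by the number of arrays.

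The named genes were, among genes detected on a whole group, the 15 largest called differences in each direction, filled up to 10 by the smallest p, up to 4 members of each of 34 lists, and Ccr2, Ccl2, Ccl7, Ccl12, Ifnb1, Top2a and Top2b. The members and lists were chosen with earlier results of these data known. Lists are described by counts and medians, without a test. The alternatives varied background correction, normalization, offset, filter, trend, weights, blocks and arrays.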

Additional observations from a re-analysis of the deposited data

Results flagged for a closer look

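The effect of DX under the same contrast differed between the days for 37 probes by a test of the difference itself, and these are listed because such a difference deserves a second look. Higher on day 7 were the globins Hbb-bs (4.16), Hbb-bt (3.90) and Hba-a1 (3.62), and Tmem164 (1.29) and Sntb2 (1.17), all as differences of log2 effects. Lower on day 7 were the interferon-stimulated genes Mx1 (-2.31), Ifi205 (-1.75), Isg15 (-1.68), Oasl1 (-1.48), Ifit2 (-1.35), Irf7 (-1.35), Usp18 (-1.28) and Ifit3 (-1.07), the exonuclease Trex1 (-1.29), and probes of Mtmr14 (-1.48) and Lamp2 (-0.87). The groups hold 2 or 3 arrays each, so no group was large enough for a check of single outlying samples.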

How the results depend on the processing

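All 37 called probes kept their sign in every alternative that tested them. The alternatives reuse the arrays on which the probes were chosen, so this is no independent check. With 1 probe a gene 28 of the 37 were tested. The count of 37 was 24 without the mean-variance trend, 81 with array weights, and 1 to 49 when 1 array was left out. It was 26 with the replicate block, 49 with BeadChip as a fixed block and 0 without the 2 day 7 PBS arrays of fewest detected probes, an alternative chosen after seeing the data. The split of higher to lower calls was 16 to 21, but 7 to 21 with quantile normalization without background correction and 7 to 20 with the authors' table.

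The day 2 count of 101 was 51 without the trend, 290 with array weights and 10 to 108 with 1 array left out. The day 7 count of 55 was 26 with quantile normalization without background correction and with the authors' table, 23 with the offset of 50, 147 with 14 arrays, 31 without the trend, 101 with array weights, 5 with BeadChip as a fixed block and 31 with the replicate block. It was 18 with non-responders alone, 30 without the 2 muscle-rich arrays, 0 without the 2 day 7 PBS arrays and 1 to 210 with 1 array left out. In limma these last fits without the PBS arrays had 1160 (difference) and 1296 (day 7) probes at an unadjusted p under 0.05.

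The difference of Top2a lay between -0.25 and 0.21 with 1 array left out and turned to 0.28 without the 2 day 7 PBS arrays and to 0.33 within BeadChips. Myl1 and Acta1, muscle genes, turned to -1.13 and -1.25 with non-responders alone, -1.46 and -1.14 within BeadChips, and ranged from -0.083 to 2.64 and from -0.17 to 2.37 with 1 array left out, with the low ends without day 2 PBS replicate 1. Their causes were not tested. Over the alternatives the median of the nucleic acid sensing list ranged from -0.11 to 0.09, of MHC class II from -0.12 to 0.31, of p53 targets from -0.19 to 0.03, of cell cycle genes from -0.12 to 0.11, of sterol synthesis from -0.29 to -0.034, of iron handling from 0.17 to 0.64 and of hypoxia and glycolysis from -0.50 to -0.22. Over 59 genes recomputed, 1690 of the recomputed values kept sign and side of the threshold, 129 lost their call and 14 turned sign. Most of the 59 genes were not called in the main fit, and staying uncalled counts among the 1690. The 129 lost calls all fell on the 16 called genes, so the 1690 do not measure how stable the calls were. Arrays give no read depth, and dim probes such as Ifnb1 and Ccr2 are limited by background.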

Other observations

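The day 10 DX responders had no PBS group analysed here, so their values stand alone. Hbb-bs read 11.86, 10.91 and 10.28 and Isg15 9.16, 9.86 and 9.70 in these 3 tumours. Tmem164 read 7.85, 8.07 and 8.23, and Cdkn1a 10.08, 9.30 and 10.01. The unnamed probe ILMN_2450735 read 6.81, 9.00 and 6.77. Mean log2 signals over the type I interferon list were 8.13, 8.41 and 8.45.

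Mast cells and neutrophils were measured by few markers. Kit, the stem cell factor receptor of mast cells, had a difference of 1.12 (adjusted p = 0.417). S100a8, a calcium-binding protein abundant in neutrophils, had a difference of 1.35 ± 0.95 (SE) and read 8.77 in NR replicate 2, against 6.49 and 5.46 in the other NR tumours. Il1r2, the decoy receptor for interleukin 1, had a difference of -1.11 (adjusted p = 0.164). Of 27 genes of the amino acid response and tRNA charging 17 were above 0, with a median of 0.14, and limma called 0, with 5 at an unadjusted p under 0.05.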
